A study of Rattus norvegicus with 14 samples.

Results

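The genes described here are 8 of the genes that encode S100 calcium-binding proteins, S100a1, S100a4, S100a6, S100a10, S100a11, S100a13, S100a16 and S100b, among the 16816 gene symbols of an RNA-seq count table from rat thyroid cells. They were selected from the S100 rows of that table, which has 16 S100 symbols, and their selection rests on measured counts. The highest count in any library was 163 for S100b, the lowest of the 8 by this measure, and 12 for S100a3, the highest of the S100 genes left outside. All 8 genes passed the filter on low counts in every comparison.

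The cells were PCCL3, a line of rat thyroid follicular cells grown with thyrotropin. One derivative carried the PAX8-PPARG fusion protein of human thyroid carcinoma (PPFP), tagged with Myc, and the other carried the empty vector (EV). Each was cultured for 16 hours with 1 μM pioglitazone, a thiazolidinedione agonist of PPARG, or with DMSO vehicle, in 3 independent experiments, which gave 4 groups of 3 libraries. Each cell line is a stable transfectant of the same parental line, so what PPFP does and what sets one transfected line apart from another cannot be told apart. The effect of pioglitazone was measured within each line.

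S100 proteins are small proteins with EF-hand calcium-binding loops that usually work as dimers. Calcium binding opens a hydrophobic face through which most of them bind target proteins such as annexins and cytoskeletal proteins, and several are also released from cells and act on the receptor Ager (RAGE). S100a10 is the exception, since it no longer binds calcium and works as the light chain of an annexin complex with Anxa2. In the thyroid the family is known mainly from carcinoma, where S100a4 is studied as a protein of invasive and metastatic tumor cells.

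The promoters are shown first, because the genes with the highest expression in PPFP cells relative to EV cells are compared throughout and PPFP retains DNA-binding domains of PAX8 and PPARG. The RefSeq windows of the GRCr8 assembly, which run from 250 bases before to 50 bases after the annotated start, matched S100a4, S100a6, S100a11, S100a13, S100a16 and S100b, and did not match S100a1 and S100a10. Capitals mark every match on either strand to 4 motifs, and PAX8 sites were not searched for. The first is TATAAA, the box of that name near many start sites. The second is AGGTCA, the core hexamer of nuclear receptor sites. The third is AGGTCANAGGTCA, the direct repeat bound by PPARG with RXR, which holds that hexamer at both ends. The last is GGGCGG, a GC box. The windows lie at chr2:178388279-178388578 on the plus strand for S100a4, chr2:178398287-178398586 on the plus strand for S100a6, chr2:181874882-181875181 on the plus strand for S100a11 and chr20:12381032-12381331 on the minus strand for S100b.
S100a4: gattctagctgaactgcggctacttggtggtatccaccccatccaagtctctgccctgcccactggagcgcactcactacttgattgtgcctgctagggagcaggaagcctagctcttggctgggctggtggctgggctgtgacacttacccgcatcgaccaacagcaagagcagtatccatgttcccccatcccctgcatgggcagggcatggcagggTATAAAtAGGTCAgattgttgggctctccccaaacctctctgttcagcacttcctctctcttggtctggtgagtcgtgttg
S100a6: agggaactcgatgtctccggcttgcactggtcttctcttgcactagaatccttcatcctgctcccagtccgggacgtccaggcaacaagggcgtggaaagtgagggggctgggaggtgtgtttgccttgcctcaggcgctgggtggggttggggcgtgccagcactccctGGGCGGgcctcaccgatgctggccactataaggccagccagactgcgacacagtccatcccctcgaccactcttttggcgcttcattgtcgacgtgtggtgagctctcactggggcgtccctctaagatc
S100a11: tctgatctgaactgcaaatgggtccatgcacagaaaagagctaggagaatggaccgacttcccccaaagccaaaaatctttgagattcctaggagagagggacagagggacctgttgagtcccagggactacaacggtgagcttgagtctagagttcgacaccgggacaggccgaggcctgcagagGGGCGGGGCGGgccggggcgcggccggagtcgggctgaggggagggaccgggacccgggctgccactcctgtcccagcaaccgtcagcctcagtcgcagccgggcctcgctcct
S100b: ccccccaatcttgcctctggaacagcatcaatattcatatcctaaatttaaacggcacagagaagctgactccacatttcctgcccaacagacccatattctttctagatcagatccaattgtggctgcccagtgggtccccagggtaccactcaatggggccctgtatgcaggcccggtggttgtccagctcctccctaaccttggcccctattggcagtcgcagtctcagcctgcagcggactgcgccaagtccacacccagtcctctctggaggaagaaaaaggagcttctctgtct

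The S100a4 window held TATAAA at position -31 and AGGTCA at position -24 from the start, separated by a single base. The S100a6 window held GGGCGG at position -80, and the S100a11 window held it at positions -64 and -59, where the matches share a base. The S100b window held none of the 4 motifs. Of the windows not printed, S100a13 held GGGCGG at position -82 and S100a16 held none. Of 33469 rat promoter windows of the same length, 14.2% held TATAAA, 16.2% AGGTCA, 33.1% GGGCGG and 0.0538% the direct repeat, which was in none of the 6 S100 windows. These are matches of letters in 1 short window and say nothing of whether a factor bound there.

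The libraries held 23724703 to 35240176 counts each, and expression is given as CPM, with library totals scaled by TMM factors. Levels of different genes are not compared, since CPM is not divided by transcript length. Pparg, whose counts include any reads of the fusion transcript that were assigned to the rat gene, was at 1.20 to 1.81 CPM in EV cells and 46.9 to 60.4 CPM in PPFP cells without pioglitazone, higher in every library labelled PPFP. The thyroid markers Tg, Slc5a5, Tshr, Pax8, Nkx2-1, Foxe1 and Duox2 each had at least 468 counts in every library.

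The comparison of PPFP with EV cells without pioglitazone asks which genes differ with the fusion protein before a ligand is added. Of the 8 S100 genes, 6 were higher in PPFP cells (S100a4, S100a6, S100a10, S100a11, S100a16 and S100b) and S100a1 was lower, with edgeR's quasi-likelihood test and Benjamini-Hochberg adjustment over all genes tested. Of all 10264 genes tested, 22.0% were higher and 23.1% were lower. Of these, 5, all but S100a16, were more than 2-fold higher, as were 7.27% of all genes tested. Because the genes were chosen with such results known, the counts describe the family and are not evidence that it stands apart. The median log2 fold change was 2.20 over the 8 genes and 0.00164 over all genes tested.

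S100a4, which binds the heavy chain of non-muscle myosin and is known from motile and invasive cells, had the largest difference of the 8 genes. Its level without pioglitazone was 0.709, 0.268 and 1.07 CPM in EV replicates 1, 2 and 3, which are counts of 21, 8 and 32, and 87.5, 91.2 and 108 CPM in the PPFP replicates, which are counts of 2380, 2443 and 2532. S100a4 was thus barely detected in EV cells and well detected in every PPFP library. The log2 fold change was 7.12 ± 0.32 (SE, adjusted p = 6.4e-06), a 139.5-fold difference, and its size rests on the low EV counts, which varied 3.97-fold among the 3 libraries. With pioglitazone S100a4 was at 0.813, 0.450 and 0.699 CPM in EV cells and at 50.8, 63.2 and 63.9 CPM in PPFP cells. The groups were again far apart, with a log2 fold change of 6.50 ± 0.21 (SE, adjusted p = 2.5e-06).

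S100a6, also called calcyclin, binds Cacybp and Sugt1 and is often high in dividing cells. It was at 2.30, 1.38 and 1.63 CPM in EV cells and at 27.8, 19.4 and 26.1 CPM in PPFP cells without pioglitazone. All 3 PPFP libraries lay above all EV libraries, by a log2 fold change of 3.79 ± 0.23 (SE, adjusted p = 2.1e-05) or 13.8-fold. With pioglitazone S100a6 was at 1.68, 2.18 and 1.61 CPM in EV cells and at 11.9, 10.6 and 11.1 CPM in PPFP cells. The groups stayed apart, with a smaller log2 fold change of 2.63 ± 0.16 (SE, adjusted p = 2.2e-05).

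S100a10 and S100a11 are known for their complexes with annexins, S100a10 with Anxa2 and S100a11 with Anxa1. S100a10 was at 11.8, 8.25 and 14.5 CPM in EV cells and at 56.2, 48.6 and 55.9 CPM in PPFP cells without pioglitazone. Its log2 fold change was 2.22 ± 0.20 (SE, adjusted p = 0.00011), a 4.66-fold difference with no overlap between the groups. With pioglitazone it was at 11.1, 9.29 and 13.9 CPM in EV cells and at 33.1, 32.8 and 31.9 CPM in PPFP cells, and the log2 fold change was 1.53 ± 0.16 (SE, adjusted p = 0.00021). The 3 PPFP libraries with pioglitazone differed from each other by only 1.04-fold.

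S100a11 was at 5.94, 3.79 and 8.10 CPM in EV cells and at 27.3, 24.0 and 29.0 CPM in PPFP cells without pioglitazone, with a log2 fold change of 2.17 ± 0.25 (SE, adjusted p = 0.00039). With pioglitazone it was at 9.54, 3.60 and 4.02 CPM in EV cells and at 22.6, 20.8 and 21.9 CPM in PPFP cells, with a log2 fold change of 1.93 ± 0.35 (SE, adjusted p = 0.0031). The groups did not overlap, but the EV libraries of S100a11 varied 2.14-fold without and 2.65-fold with pioglitazone, with replicate 3 highest without and replicate 1 highest with it. The annotation names 7 further S100a11 copies or pseudogenes and 1 S100a10 pseudogene, and no row of the table holds them. The values of both genes are uncertain to the extent that reads fit a copy.

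S100b, the member known from astrocytes and Schwann cells and a ligand of Ager, was the lowest in counts. It had 43, 30 and 25 counts in EV libraries and 112, 161 and 163 in PPFP libraries without pioglitazone, or 1.45, 1.01 and 0.833 against 4.12, 6.01 and 6.98 CPM. The groups did not overlap, and the log2 fold change was 2.37 ± 0.29 (SE, adjusted p = 0.00052), a 5.18-fold difference. With pioglitazone S100b was at 1.60, 0.900 and 0.873 CPM in EV cells against 2.23, 4.03 and 3.97 CPM in PPFP cells, with a log2 fold change of 1.60 ± 0.34 (SE, adjusted p = 0.0061). S100b overlaps Dip2a in the RefSeq annotation. Dip2a, with 1985 counts or more in every library, had a log2 fold change of 0.13 ± 0.074 (SE, adjusted p = 0.20) without pioglitazone.

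The remaining members moved little or in the other direction. S100a16, a broadly expressed member, was at 47.0, 49.7 and 52.4 CPM in EV cells and at 69.8, 61.4 and 63.4 CPM in PPFP cells without pioglitazone, which is 1.31-fold higher with no overlap (log2 fold change 0.39 ± 0.088, SE, adjusted p = 0.0094). With pioglitazone it was at 43.4, 51.8 and 47.2 CPM in EV cells and at 54.9, 46.9 and 51.4 CPM in PPFP cells, and these groups overlapped (adjusted p = 0.32, 95% interval of the log2 fold change from -0.10 to 0.34).

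S100a13, which takes part in the release of Fgf1 from cells, did not pass in either treatment. It was at 13.2, 13.4 and 19.7 CPM in EV cells against 16.6, 15.6 and 17.2 CPM in PPFP cells without pioglitazone, and the log2 fold change of 0.095 had a 95% interval from -0.30 to 0.49 (adjusted p = 0.68). With pioglitazone it was at 13.9, 13.8 and 18.3 CPM in EV cells against 13.9, 11.4 and 11.7 CPM in PPFP cells, with an interval from -0.67 to 0.070 (adjusted p = 0.15). Replicate 3 was the highest EV library of S100a13 in both treatments.

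S100a1, known mostly from heart and skeletal muscle as a regulator of calcium release and uptake, was the only member lower in PPFP cells. It was at 12.3, 12.6 and 10.9 CPM in EV cells and at 8.31, 7.99 and 7.96 CPM in PPFP cells without pioglitazone, with a log2 fold change of -0.56 ± 0.12 (SE, adjusted p = 0.0064). With pioglitazone it was at 10.5, 13.2 and 9.74 CPM in EV cells and at 7.08, 6.41 and 6.78 CPM in PPFP cells, with a log2 fold change of -0.71 ± 0.14 (SE, adjusted p = 0.0052). No PPFP library reached the lowest EV library in either treatment.

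**Figure D1:**
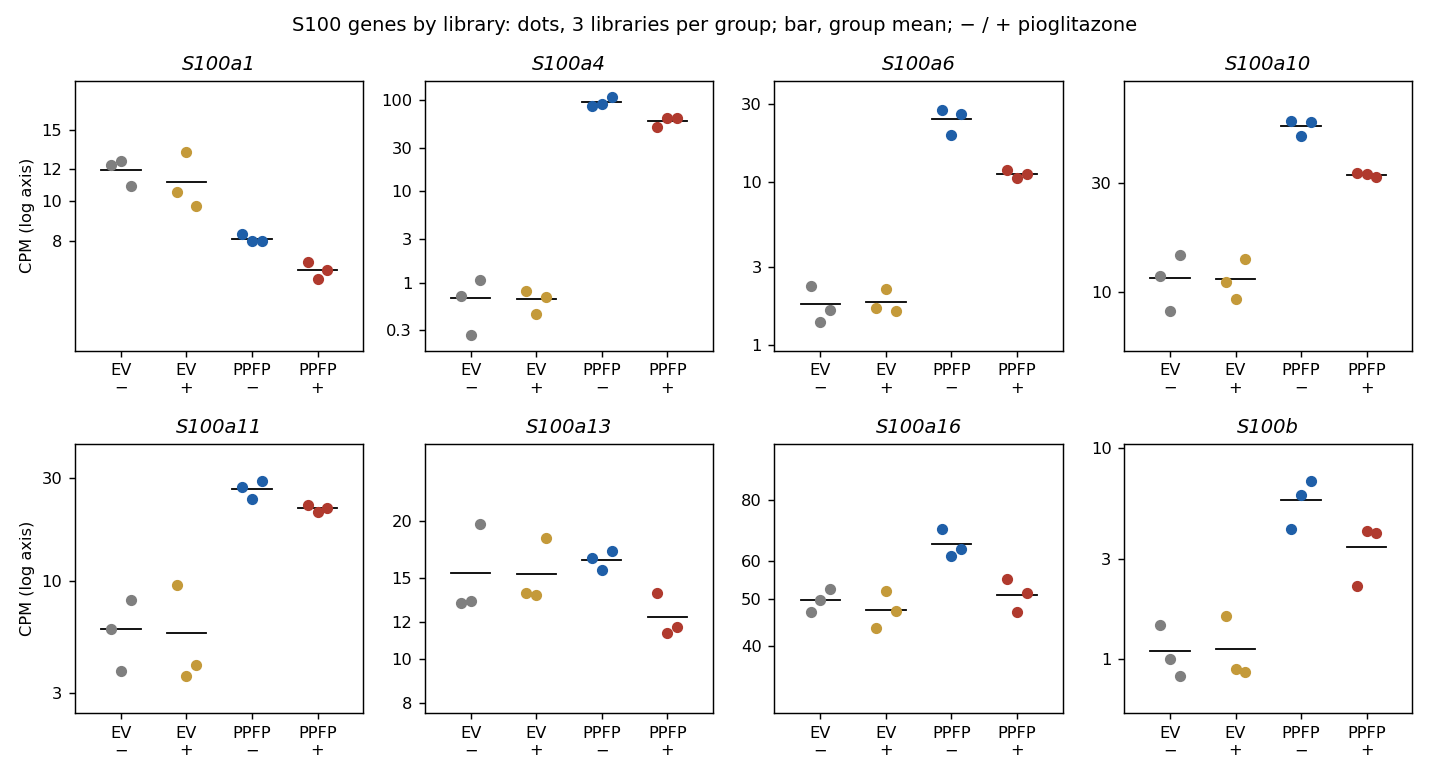
Expression of the 8 S100 genes in CPM on a log axis, with 1 dot per library, 3 libraries per group and the group mean as a bar, for EV and PPFP cells without (−) and with (+) pioglitazone. The PPFP libraries of S100a4, S100a6, S100a10, S100a11 and S100b lie above every EV library, those of S100a1 lie below, and those of S100a13 and S100a16 lie close to the EV libraries.

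With pioglitazone, 5 of the 8 genes were higher in PPFP than in EV cells, all by more than 2-fold, and 1 was lower. Among the 10291 genes tested, 26.3% were higher, 9.30% were more than 2-fold higher and 26.4% were lower. The libraries of the cell lines did not overlap, with PPFP higher, for 6 members without pioglitazone (27.6% of all genes tested) and 5 with it (31.0%). They did not overlap with PPFP lower for 1 member in each treatment, as for 28.8% of all genes tested without and 32.0% with pioglitazone.

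The comparison of PPFP cells with and without pioglitazone asks how the ligand changes expression when the fusion protein is present. S100 expression fell: S100a6, S100a10, S100a4, S100a13 and S100a16 were lower with pioglitazone at an adjusted p under 0.05, as were 7.13% of the 10064 genes tested, and no member was higher. S100a6 alone was more than 2-fold lower, as were 1.31% of all genes tested. For all 8 members every library with pioglitazone lay below every library without it, as it did for 17.9% of all genes tested. The median log2 fold change was -0.54 over the members and 0.012 over all genes tested.

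Same-numbered libraries of PPFP cells deviated together, and with the replicate number as a block in the same edgeR test all 8 members were lower, as were 23.9% of all genes tested. The block brought in S100a11 (adjusted p from 0.076 to 0.00031), S100b (0.17 to 1.9e-05) and S100a1 (0.13 to 0.030), the 3 members that had not passed without it. Their log2 fold changes were -0.29, -0.73 and -0.25 with the block and hardly differed from those without it.

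The ratio of expression with to without pioglitazone in each of the 3 same-numbered pairs shows this. For S100a6 the ratio was 0.426, 0.544 and 0.426, and the log2 fold change was -1.12 ± 0.14 (SE, adjusted p = 0.0045). For S100a10 it was 0.588, 0.675 and 0.571 (log2 fold change -0.71 ± 0.074, SE, adjusted p = 0.0022), and for S100a4 it was 0.580, 0.694 and 0.590 (log2 fold change -0.68 ± 0.13, SE, adjusted p = 0.017). In each of these 3 genes the ratio of replicate 2 was nearest to 1.

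For S100b the ratio was 0.542, 0.670 and 0.569 and the unblocked log2 fold change -0.72 ± 0.29 (SE), with replicate 1 the lowest library in both treatments at 112 and 59 counts. The ratio was 0.838, 0.729 and 0.681 for S100a13 (log2 fold change -0.41 ± 0.098, SE, adjusted p = 0.038) and 0.785, 0.764 and 0.810 for S100a16 (-0.34 ± 0.080, SE, adjusted p = 0.037). It was 0.826, 0.867 and 0.755 for S100a11 and 0.852, 0.803 and 0.851 for S100a1. All 24 ratios of the 8 members in PPFP cells were below 1. The members share the same libraries, so these ratios are not independent measurements. The share of all genes with every ratio below 1 was not computed.

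Leaving out libraries in turn changed some unblocked calls but no direction. S100a13 did not pass without PPFP replicate 1, 2 or 3 of the vehicle group, or without replicate 2 or 3 of the pioglitazone group (adjusted p up to 0.16), and S100a16 did not pass without the same 5 libraries (up to 0.12). The log2 fold changes ran from -0.51 to -0.36 for S100a13 and from -0.40 to -0.29 for S100a16 over all 6 libraries left out. S100a4 did not pass without replicate 3 of the vehicle group (0.065) or replicate 2 of the pioglitazone group (0.053). S100a11 passed without replicate 2 of the vehicle group (log2 fold change -0.38, adjusted p = 0.049). The calls of S100a6 and S100a10 held without each of the 6 libraries.

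**Figure D2:**
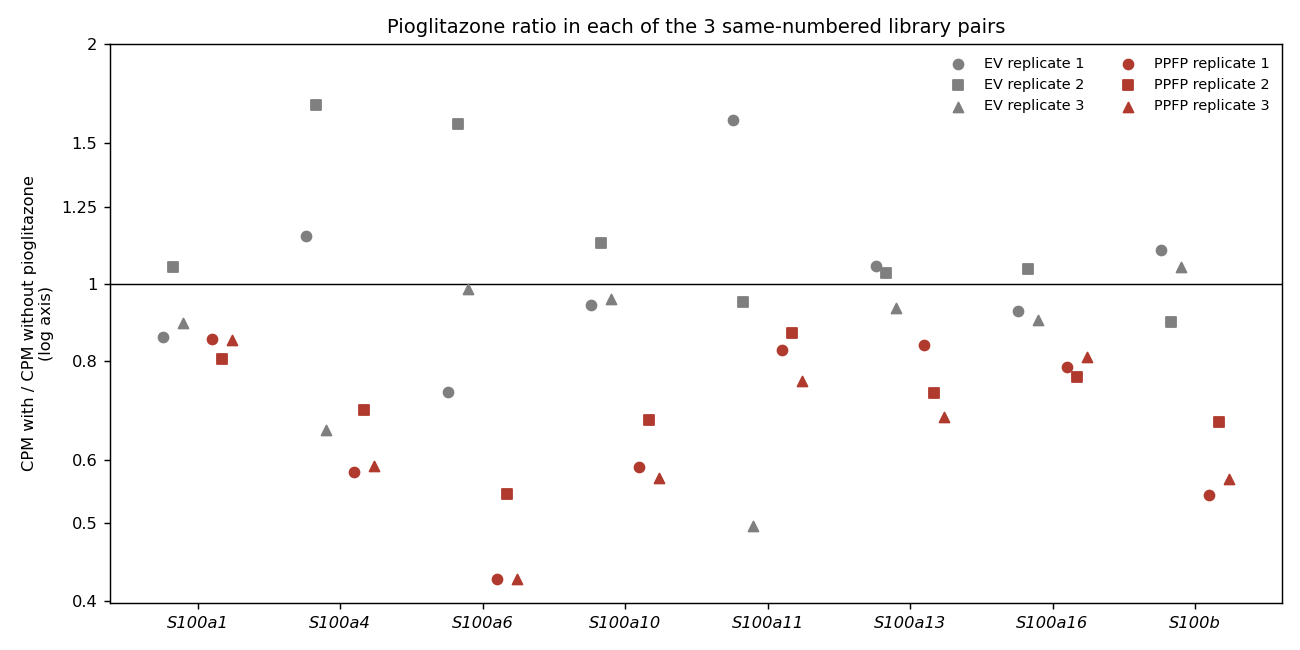
Ratio of CPM with to CPM without pioglitazone (log axis) in each pair of libraries with the same replicate number, for EV cells (grey) and PPFP cells (red), with a line at a ratio of 1. The PPFP ratios lie below 1 for every gene, lowest for S100a6 at 0.426, while the EV ratios lie on both sides of 1.

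No response of an S100 gene to pioglitazone was detected in EV cells. No member passed edgeR's quasi-likelihood test (adjusted p = 0.9999 for each), none had an unadjusted p under 0.05, none passed with DESeq2 or with the replicate block, and 0% of the 10146 genes tested passed. Of the 24 ratios in EV cells, which share libraries in the same way, 13 were below 1. The groups with and without pioglitazone overlapped for all 8 members, and the log2 fold changes ran from -0.098 for S100a1 to 0.048 for S100b.

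These data limit some members more than others. The 95% interval of the EV response ran from -0.29 to 0.15 for S100a16 and from -0.55 to 0.64 for S100a6, and from -1.24 to 1.12 for S100a4, whose EV libraries hold 8 to 32 counts. A fall in S100a4 of the size seen in PPFP cells would therefore not have been detectable in EV cells. For S100a11 the interval ran from -1.11 to 1.00, and its EV ratios were 1.61, 0.949 and 0.496. This interval includes the S100a11 fall in PPFP cells (-0.29). The EV intervals of S100b (-0.75 to 0.85), S100a13 (-0.51 to 0.48) and S100a1 (-0.43 to 0.24) also include their PPFP falls (-0.72, -0.41 and -0.25). Those of S100a6, S100a10 and S100a16 do not.

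**Figure D3:**
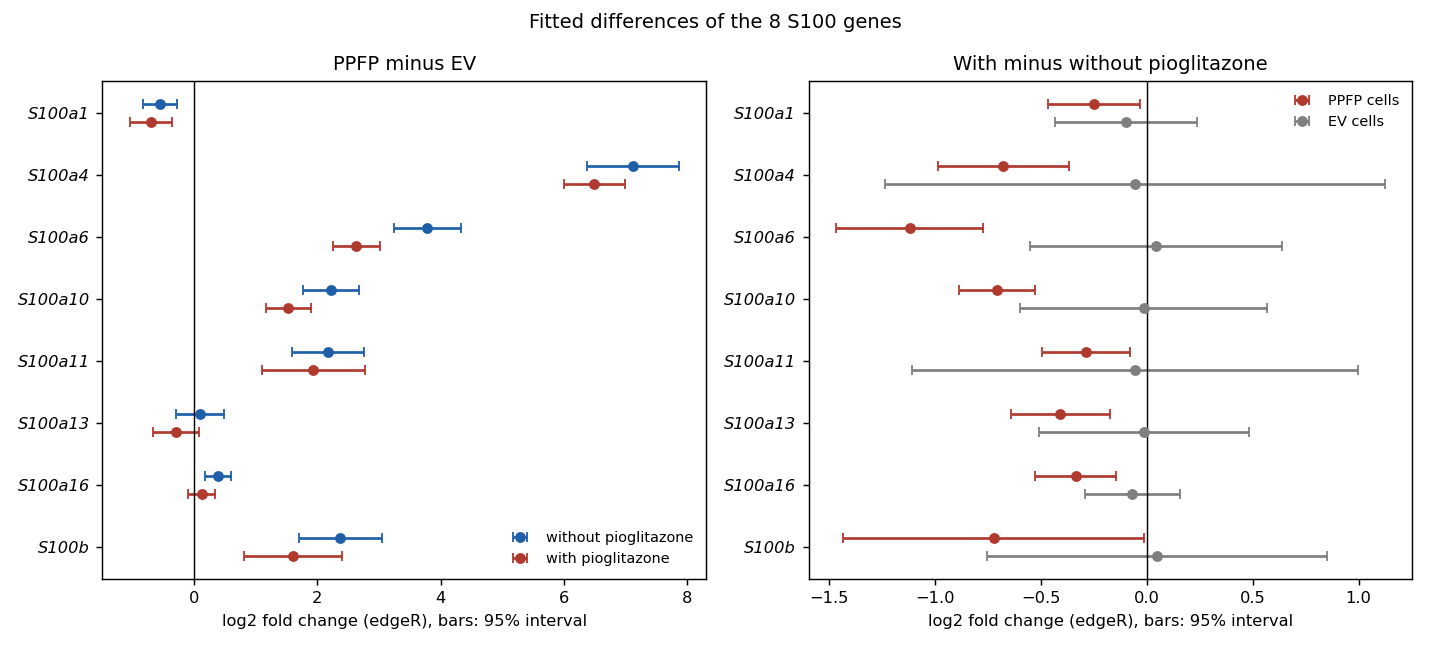
Fitted log2 fold change of the 8 S100 genes with its 95% interval, on the left for PPFP against EV cells in each treatment and on the right for pioglitazone against vehicle in each cell line. S100a4 has the largest cell line difference at 7.12, and for pioglitazone the PPFP values lie between -1.12 and -0.25 while the EV values lie about 0 with wider intervals.

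A fit to all 12 libraries asked, through its interaction term, whether PPFP and EV cells respond differently to pioglitazone. The term was negative for all 8 members, which share the same 12 libraries. The share of all genes with a negative term was not computed, and the median term over all genes tested was -0.0043. With edgeR's quasi-likelihood test and Benjamini-Hochberg adjustment no member passed, against 2.64% of the 10482 genes tested. For 3 members the term had an unadjusted p under 0.05, as it did for 13.3% of all genes tested. DESeq2 called 1 member, S100a6, and 5.73% of the 10480 genes with an adjusted p. The term of S100a6 was -1.17 ± 0.28 (SE, adjusted p = 0.055), and that of S100a10 was -0.70 ± 0.26 (SE, adjusted p = 0.23).

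With the replicate number within each cell line as a block, 5 members had a response that was more negative in PPFP cells, as did 17.1% of all genes tested. They were S100a6 (adjusted p = 0.0016), S100a10 (6.0e-05), S100a13 (0.0056), S100a16 (0.0042) and S100b (0.015). S100a4 (adjusted p = 0.12), S100a11 (0.50) and S100a1 (0.33) did not pass with the block. For S100a11 the sign rests on 1 library, since the term was 0.35 without EV replicate 1 of the pioglitazone group and -0.26 with it.

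The order of the groups was therefore the same for S100a4, S100a6, S100a10, S100a11 and S100b, with PPFP without pioglitazone highest, PPFP with pioglitazone next and both EV groups lowest. In these 5 genes the steps between the PPFP groups and from PPFP to EV had no overlap, and the EV groups overlapped each other. The share of all genes with this whole order was not computed. Only the shares for the separate comparisons are given above. The PPFP libraries without pioglitazone enter both the comparison with EV cells and the pioglitazone response, so the higher level and the fall are not independent measurements. For S100a6 the mean was 24.4 ± 4.45 CPM in PPFP cells without and 11.2 ± 0.650 CPM with pioglitazone, against 1.77 ± 0.475 and 1.82 ± 0.315 CPM in EV cells (SD, n = 3). For S100a16 the fall brought PPFP cells from 64.9 ± 4.42 to 51.0 ± 4.0 CPM, where they overlapped EV cells at 47.5 ± 4.19 CPM (SD, n = 3). S100a1 was at 8.09 ± 0.195 CPM in PPFP cells without and 6.76 ± 0.333 CPM with pioglitazone, against 11.9 ± 0.877 and 11.2 ± 1.82 CPM in EV cells (SD, n = 3).

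Over the 12 libraries the levels of S100a4, S100a6, S100a10, S100a11 and S100b followed each other, with Pearson correlations of log2 CPM from 0.91 to 0.97 between any of them. S100a13 followed none of these 5 (-0.17 to 0.094), and S100a1 ran against them (-0.91 to -0.78). The libraries are shared and fall into 4 groups, so these values describe the group pattern and carry no test.

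By the same measure, among the 9638 genes whose mean reached 1 CPM, those most like S100a4 were Rbfox1, Pde2a and Adamts4 (0.996 to 0.998). Those most like S100a6 were Tspan31, Slc4a7 and Papss2 (0.987 to 0.992), those most like S100a10 were Gtf2a1, Gpx4 and Stard10 (0.991 to 0.995), and those most like S100b were Sh3rf2, Sbno2 and Llgl2 (0.984 to 0.989). Cd9, Chst11 and Zcchc12 were most like S100a11 (0.969 to 0.975), and Zfp46 and St3gal5 were among the 3 most like S100a1 (0.982 and 0.979). The values were lower for S100a13, with Sec11c, Hm13 and Vangl1 (0.918 to 0.953), and for S100a16, with Nln, Gpx8 and Arhgap39 (0.926 to 0.930).

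Most S100 genes lie together on rat chromosome 2, with S100b on chromosome 20. In the gene order of GRCr8, S100a1, S100a13, S100a14, S100a16, S100a3, S100a4, S100a5, S100a6, S100a7a, S100a8 and S100a9 follow each other without another gene between them, and S100a11 and S100a10 are neighbours elsewhere on the chromosome. The differences between the cell lines varied along this order. Of the genes at its start S100a1 was lower and S100a13 did not pass, S100a4 and S100a6 were high in PPFP cells, and S100a5 between them had at most 3 counts in any library. S100a8 and S100a9, the myeloid members known as calprotectin, had 0 counts in all 12 libraries.

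S100a3, next to S100a4, had 3, 1 and 2 counts in EV cells and 10, 11 and 12 counts in PPFP cells without pioglitazone, and 4, 2 and 2 against 4, 2 and 4 counts with it. Its counts were highest in the same group as those of S100a4, but it was too low to be tested, and no fold is given. S100a5 was at 0 in every EV library and at 1, 3 and 0 counts, and 0, 3 and 0 counts with pioglitazone, in PPFP libraries. S100z had at most 3 counts in a library, and S100a7a, S100g and S100vp, with S100a7l2 under an older symbol, had 0 counts throughout. S100a14 and S100p were not analysed here.

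Next to the cluster, on the side of S100a1, lie Chtop, Snapin, Ilf2 and Npr1. Of these 4 tested genes, Ilf2 (log2 fold change 0.73, adjusted p = 0.018) and Snapin (0.32, adjusted p = 0.026) were higher in PPFP cells without pioglitazone and Npr1 was lower, with 164 to 243 counts in EV libraries and 0 or 1 in PPFP libraries. Chtop was at -0.083 (adjusted p = 0.42). In PPFP cells the response to pioglitazone of Ilf2, Snapin and Chtop did not pass without a block (adjusted p = 0.61, 0.75 and 0.094), and Npr1 was too low to test. With the replicate block Ilf2 (log2 fold change 0.19, adjusted p = 0.00065) and Chtop (0.13, adjusted p = 0.0025) were higher and Snapin did not pass (adjusted p = 0.38).

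**Figure D4:**
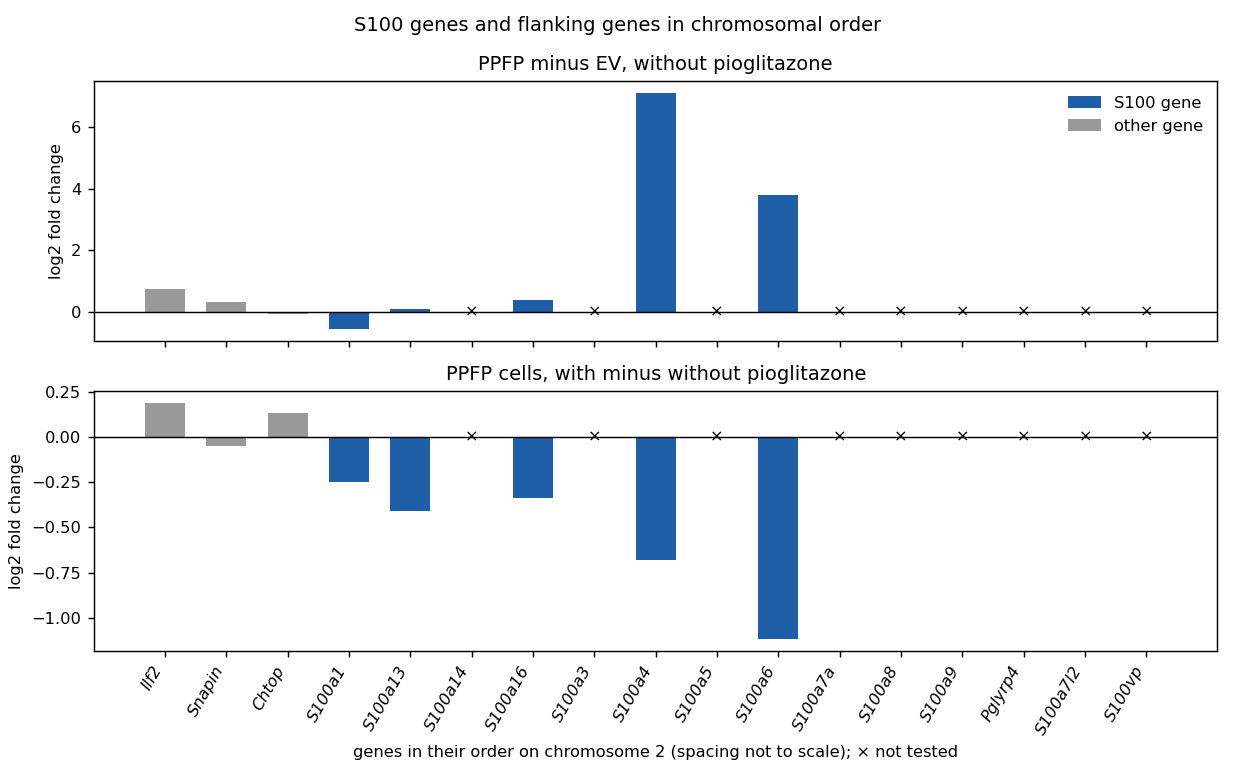
Log2 fold change of the S100 genes (blue) and other genes (grey) in their order on rat chromosome 2, without spacing to scale and without Npr1, for PPFP against EV cells without pioglitazone (top) and for pioglitazone in PPFP cells (bottom), where a cross marks a gene that was not tested. S100a4 at 7.12 and S100a6 at 3.79 stand above their tested neighbours in the top panel, and each tested S100 gene lies below 0 in the bottom panel.

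Known partners and receptors of S100 proteins were examined as a list of 24 genes. Without pioglitazone 9 of the 23 tested were higher in PPFP cells (39.1%, against 22.0% of all genes tested), 4 were lower (17.4%, against 23.1%) and the median log2 fold change was 0.088. With pioglitazone 9 of 24 were higher (37.5%, against 26.3%) and 7 lower (29.2%, against 26.4%). Among the genes that passed in the same direction in both treatments were Anxa1, Anxa2, Ager, Fgf1, Mdm2, Mapt and Iqgap1, which were higher, and Anxa11, Myh9, Sugt1 and Capn1, which were lower.

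Anxa2, the partner of S100a10, and Anxa1, that of S100a11, were both higher in PPFP cells. Without pioglitazone Anxa2 had a mean of 153 CPM in EV cells against 646 CPM in PPFP cells, with a log2 fold change of 2.08, close to the 2.22 of S100a10. Anxa1 was at 57.5 and 131.5 CPM (log2 fold change 1.19) and fell with pioglitazone in PPFP cells to 82.4 CPM (log2 fold change -0.66, adjusted p = 0.0018), while Anxa2 passed that test only with the replicate block (-0.17, adjusted p = 0.083 without and 0.00080 with it). Anxa11, an annexin that S100a6 binds, was lower in PPFP cells, at 108 against 151 CPM without pioglitazone.

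Partners of the other members went both ways. Myh9, the myosin heavy chain that S100a4 binds, was at 812 CPM in EV cells against 320 CPM in PPFP cells without pioglitazone (log2 fold change -1.34, adjusted p = 0.00046), opposite to S100a4. Of the other S100a6 partners Sugt1 was lower (log2 fold change -0.70) and Cacybp did not pass without pioglitazone (0.41, adjusted p = 0.080) but was higher with it (0.54, adjusted p = 0.027). Ager, the receptor of S100b, rose from 2.86 to 8.76 CPM (log2 fold change 1.62), and Fgf1, which S100a13 accompanies out of the cell, rose from 9.08 to 22.1 CPM (1.28). Mapt, the microtubule protein tau, was at 0.684 and 4.89 CPM. Mdm2, a ubiquitin ligase, was at 120 and 193 CPM, and Iqgap1, a scaffold of the cortical cytoskeleton, was at 369 and 470 CPM. Capn1, the catalytic subunit of a calcium-dependent protease, was at 272 and 120 CPM. With pioglitazone in PPFP cells 3 of the 24 partners were lower (12.5%, against 7.13% of all genes tested), Anxa1, Anxa5 and Capn1, and none were higher, against 7.63% of all genes tested. With the replicate block, read for these lists after the data were seen, 12 of 24 were lower, against 23.9% of all genes tested, and 3 higher (12.5%, against 27.7%). Those brought in as lower included Anxa2, Anxa7, Anxa11, Myh9 and Capns1, and those higher were Anxa6, Cacybp and Tgm2.

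Other genes of the EF-hand superfamily were read as a list of 40, of which 36 were in the table and 27 were tested without pioglitazone. Of these, 9 were higher (33.3%, against 22.0% of all genes tested) and 7 lower (25.9%, against 23.1%), with a median log2 fold change of 0.028. The highest among those that passed were Efhd1, a mitochondrial EF-hand protein, at 13.7 CPM in EV and 181 CPM in PPFP cells, and Calml3, a calmodulin-like protein, at 18.5 and 152 CPM. The lowest were Rcn3, a reticulocalbin of the endoplasmic reticulum, at 23.7 and 1.44 CPM, and Cabp1, a neuronal calcium sensor, at 87.4 and 28.9 CPM. Between the cell lines with pioglitazone, 9 of 28 tested were higher in PPFP cells (32.1%, against 26.3% of all genes tested) and 11 lower (39.3%, against 26.4%). With pioglitazone in PPFP cells 3 of 27 tested EF-hand genes were higher, Efhd1, Calml3 and Rcn1 (11.1%, against 7.63% of all genes tested), and 1, Cabp1, was lower (3.7%, against 7.13%). With the replicate block 7 were higher (25.9%, against 27.7% of all genes tested) and 9 lower (33.3%, against 23.9%). The median response was -0.023, against -0.54 for the S100 genes, and the difference between the lists was not tested.

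**Figure D5:**
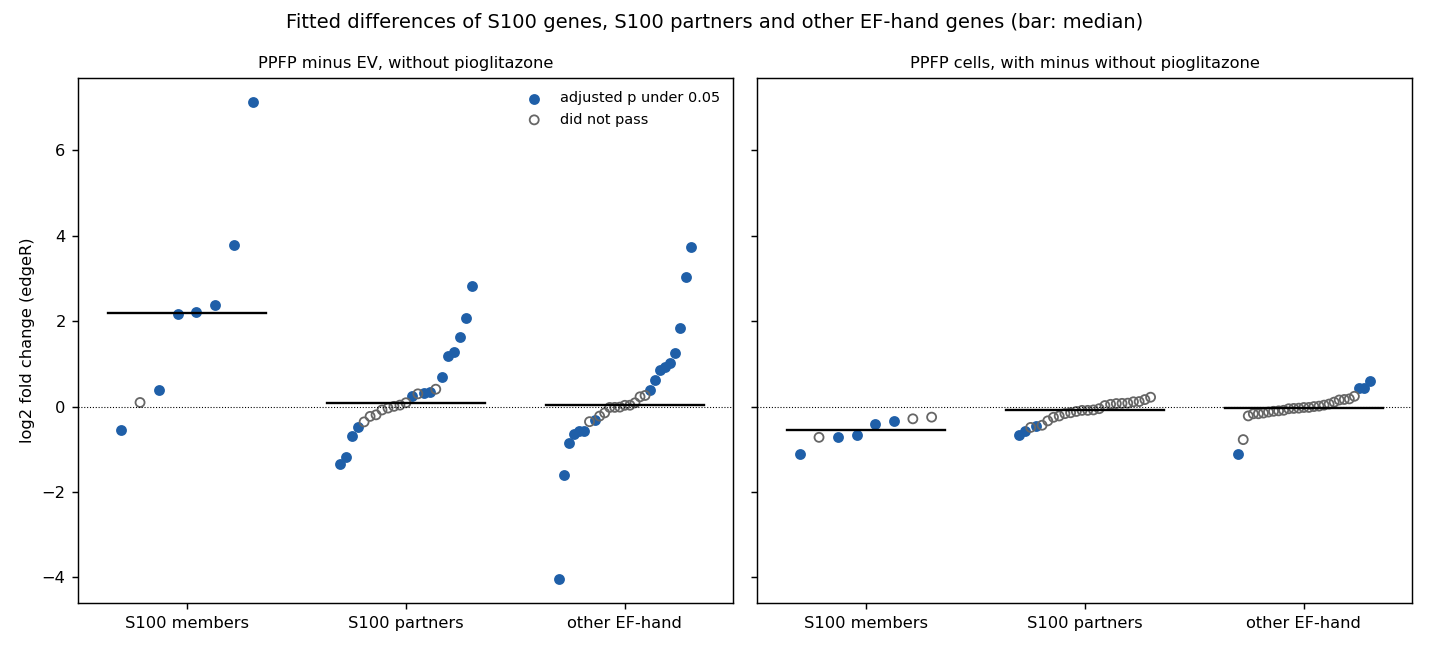
Log2 fold change of each tested gene of the S100 members, S100 partners and other EF-hand genes, sorted within a list, for PPFP against EV cells without pioglitazone (left) and for pioglitazone in PPFP cells (right), where filled dots passed an adjusted p of 0.05 and the bar is the median. The S100 members have a median of 2.20 on the left and -0.54 on the right, and the other lists have medians close to 0 in both.

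Some S100 genes are used as markers of other cell types, so markers of those cells were read in the same libraries. The Schwann cell and glia list had 6 genes, and its summed level was lower in PPFP cells, where S100b was higher. It was at 29.2 to 43.8 CPM in EV and 7.06 to 10.6 CPM in PPFP cells without pioglitazone, and at 30.9 to 39.1 and 3.60 to 7.23 CPM with it. Within PPFP cells the sum went the same way as S100b, lower with pioglitazone but with ranges that overlapped. Of the 3 genes tested for this response only Ngfr passed (log2 fold change -1.83, adjusted p = 0.0026). Sox10 was at 0 counts in all EV libraries and at most 17 counts in PPFP libraries, and Gfap had at most 5 counts. Of 7 fibroblast markers, for which S100a4 is often used, Col3a1, Dcn and Lum were at 0 in all libraries, and Col1a2 and Pdgfrb had at most 1 count. Col1a1 had 23 to 96 counts per library and did not pass between the cell lines in either treatment. The summed level was 22.3 to 24.2 CPM in EV and 20.4 to 32.4 CPM in PPFP cells without pioglitazone, most of it from Pdgfra. With pioglitazone the sums did not overlap, at 22.9 to 24.3 CPM in EV and 26.0 to 34.5 CPM in PPFP cells, and Pdgfra was higher in PPFP cells (log2 fold change 0.46, adjusted p = 0.014).

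Of 6 macrophage and leukocyte markers, Itgam was at 0 in all libraries, Ptprc had at most 1 count, and the summed level without pioglitazone was 5.67 to 6.93 CPM in EV and 4.60 to 6.27 CPM in PPFP cells, overlapping as it did with pioglitazone (5.31 to 6.36 and 5.15 to 5.52 CPM). Most of it was Cd14, with means of 5.70 and 4.28 CPM (log2 fold change -0.41, adjusted p = 0.092), and with pioglitazone Cd14 was lower in PPFP cells, at 3.94 against 5.41 CPM (-0.44, adjusted p = 0.038). Cd68, a lysosomal protein abundant in macrophages, was higher in PPFP cells, with means of 0.525 and 0.953 CPM without pioglitazone (log2 fold change 0.86, adjusted p = 0.048) and 0.543 and 1.21 CPM with it (1.18, adjusted p = 0.016). Aif1 was too low to test, at 7 counts or fewer, with its PPFP libraries above its EV libraries in both treatments. The 3 endothelial markers in the table summed to at most 0.201 CPM in any library, and Cdh5 was at 0. The adipocyte list of 5 genes moved with the cell line and the drug, from 1.17 to 3.14 CPM in EV cells without and 0.629 to 2.74 CPM with pioglitazone, and in PPFP cells from 18.8 to 19.5 CPM without and from 53.2 to 73.5 CPM with it, with Lep and Retn at 0 in all libraries. The rise with pioglitazone came from Plin1 (log2 fold change 2.68, adjusted p = 0.00041) and Cidec (1.46, adjusted p = 0.0013), which coat and enlarge lipid droplets. Adipoq, the adiponectin gene, fell in PPFP cells as S100 genes did, from 4.54 to 2.40 CPM (log2 fold change -0.91, adjusted p = 0.024). The summed level was higher in the PPFP group in which the S100 genes were lower, and the part of these marker lists in the S100 results was not tested. In bulk RNA, fewer cells that express a gene and less RNA of it per cell cannot be told apart.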

How the data were processed

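The authors sequenced RNA of the 12 libraries as paired reads, aligned them to the rn4 genome with TopHat2 2.0.11 and counted reads per gene with HTSeq 0.6.1p1 in its intersection-strict mode, per their methods and processing notes. The strand setting and the annotation are not given in the sources used here. The deposited values are unnormalized whole-number counts by gene symbol, 0 columns of per-sample values were left unmapped, and no file of fold changes was used. The ChIP-seq peak lists were not used, since their positions are in rn4 and no annotation of that build was used here.

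Each comparison was fitted on its 6 libraries in R 4.3.3 with edgeR 4.0.16 (filterByExpr, TMM, quasi-likelihood F test, no covariate) on all genes, with Benjamini-Hochberg adjustment over all genes tested and a threshold of 0.05. The interaction was fitted on all 12 libraries. SE values come from the log2 fold change and the F statistic, and 95% intervals from the t distribution with the degrees of freedom of the fit. The method was tested on simulated counts. Alternatives used edgeR's exact test, DESeq2 1.42.0, other scaling and filters, 1 fit of all libraries, a replicate block and each library left out. The precision is limited by 3 libraries per group and, for low genes, by the count.

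Same-numbered libraries deviated together within a cell line, with correlations of 0.818, 0.571 and 0.574 in PPFP cells and 0.614, 0.790 and 0.827 in EV cells, and the numbers were taken to pair libraries with and without pioglitazone. Replicates 2 and 3 of PPFP cells also resembled each other across numbers (0.628 and 0.485). Between the cell lines the correlations had both signs (-0.41 to 0.35), and the numbers were not taken as pairs, although all libraries of an experiment shared sequencing lanes per the study's methods.

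The members and gene lists were chosen with earlier results of these data known. All 8 members were named, partners where they passed in both treatments, the 2 highest and 2 lowest EF-hand genes that passed, and the 3 genes most correlated with each member. Other genes named beside these were chosen after their values were seen. The p-values measure the spread between 3 cultures of 1 line per group. A few genes that these rules name are not reported here.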

Additional observations from a re-analysis of the deposited data

Results flagged for a closer look

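Beside the interaction fit in which no S100 gene passed, 5 members were picked out because their pioglitazone responses differed between the cell lines in a fit with the replicate number within each cell line as a block (edgeR's quasi-likelihood test, Benjamini-Hochberg adjustment). The difference in log2 response, PPFP minus EV, was -1.16 for S100a6 (adjusted p = 0.0016), -0.71 for S100a10 (6.0e-05), -0.42 for S100a13 (0.0056), -0.28 for S100a16 (0.0042) and -0.78 for S100b (0.015). In PPFP cells every one of the 3 pairs of libraries fell in each of these genes, and in EV cells the pairs went both ways. Without the block the adjusted p was 0.055, 0.23, 0.56, 0.38 and 0.57 in the same order.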

How the results depend on the processing

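For PPFP against EV cells the calls of the S100 genes changed under 1 alternative, library size alone with pioglitazone, where S100a13 was at -0.44 (adjusted p = 0.041) and S100a16 at -0.017 instead of 0.12. The at least 10 counts filter left out S100a4 without pioglitazone, since an EV library had 8 counts. Fits of the cell line comparisons with the replicate block left all their S100 calls as they were. Leaving out libraries in turn gave S100a13 without pioglitazone -0.0072 to 0.31. The number of S100 genes that passed for pioglitazone in PPFP cells, 5 in the fit without a block, was 8 with the replicate block, 3 with all 12 libraries in one fit and 2 to 5 without single libraries, with 2 without PPFP replicate 3 of the vehicle group or replicate 2 of the pioglitazone group. For the interaction the number was 5 with the replicate block within cell line, 1 of them over 2-fold, and 1, S100a6, also over 2-fold, with DESeq2, with library size alone, with at least 10 counts in every library and without EV replicate 1 or PPFP replicate 2 of the vehicle groups (0 to 1 over all libraries left out). The interaction of S100a11 ran from -0.54 to 0.35 without single libraries. In EV cells, where no pioglitazone response passed under any alternative, leaving out libraries turned the sign in 6 genes: S100a4 from -0.44 to 0.44, S100a6 from -0.12 to 0.27, S100a10 from -0.21 to 0.21, S100a11 from -0.65 to 0.25, S100a13 from -0.17 to 0.22 and S100b from -0.31 to 0.30. Peak alternatives were not run.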
